A study of Rattus norvegicus with 8 samples.

Results

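The genes described here are 39 interferon-stimulated genes of rat liver, listed by symbol. A gene entered through the probe sets of the array that are annotated with its symbol alone, and where there were several the probe set with the highest mean over the 8 arrays was used. In this way 38 of the 39 genes, among 14217 named genes in all, had a probe set. Xaf1 is the 1 gene without a probe set of its own, and 9 of the 38 genes had more than 1 probe set to choose from.

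Interferons are cytokines that cells release on infection. Type I interferon signals through JAK kinases to a transcription factor complex that contains STAT2 and IRF9 and binds the interferon-stimulated response element (ISRE) near the genes it switches on, while interferon gamma acts at the gamma-activated site (GAS) and, as a later step, through IRF1. Their targets include antiviral proteins, the ubiquitin-like modifier ISG15 and its enzymes, sensors of foreign RNA, and the proteasome subunits and transporters that supply peptides to MHC class I. In liver they are active in hepatocytes as well as in resident macrophages (Kupffer cells) and endothelium, and glucocorticoids are widely used to damp immune signalling.

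Livers came from male Sprague-Dawley rats of 180 to 200 g. Every rat received an injection into the peritoneum, AICAR at 0.7 g/kg or saline, and an injection into muscle, dexamethasone at 1.5 mg/kg or saline, and livers were taken 8 hours later. Dexamethasone is a synthetic glucocorticoid, and AICAR (5-aminoimidazole-4-carboxamide ribonucleoside) is a cell-permeable nucleoside that activates the energy sensor AMPK. The 4 groups, each of 2 arrays, are vehicle (saline at both sites), dexamethasone (with intraperitoneal saline), AICAR (with intramuscular saline) and the combination of both agents. The series asked how AMPK activation bears on the actions of glucocorticoids. The labels give no age, and they do not say whether the 2 arrays of a group are from separate animals, so a p-value here speaks of the spread from array to array alone, and that spread may be technical. No rat was given interferon or infected as far as the labels say.

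Values are on a log2 scale, so a difference of 1 is a 2-fold change, and differences are given as mean ± standard error from 1 limma model over all 8 arrays. A gene was called at an adjusted p (Benjamini-Hochberg over 31042 probe sets) under 0.05. An exact permutation test of 2 arrays against 2 cannot give a two-sided p below 0.333, so no such test is given. Over all probe sets, Pearson's r was 0.997 to 0.998 within groups and 0.979 to 0.993 between groups. The known glucocorticoid targets Tsc22d3, Fkbp5 and Per1 differed from vehicle by 2.05, 1.40 and 0.94 after dexamethasone, and all 3 were called. The 3′ minus 5′ signal of the actin control probe sets, a measure of RNA integrity and labelling, was highest in vehicle at 2.23 ± 0.04 (SD, n = 2), with 2.04 ± 0.01 in the dexamethasone group, 1.82 ± 0.03 in the AICAR group and 1.80 ± 0.04 in the combination. It therefore moved with the treatments, and its part in the results was not tested. The 38 genes had means between 4.89 (Ifit1) and 12.66 (Ifi27), and none lay below 3.84, the lowest lower quartile of an array, in every group.

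The genes did not move as 1 block. After dexamethasone 22 of the 38 rose and 8 fell (against 8.37% and 14.3% of all 14217 genes), with Isg15 up 11.3-fold and the GTPase gene Gbp2 down 2.52-fold. The genes that fell were those of the immunoproteasome and the transporter subunit gene Tap2, the transcription factor genes Irf1 and Irf8, Gbp2 and Ifitm3. AICAR alone gave smaller rises, in 14 genes (against 6.22% of all genes), and no fall (against 8.96%). With both agents 20 rose and 8 fell (against 15.9% and 18.4%). For 17 genes (against 8.05% of all genes) the effect of dexamethasone on the log2 scale was lower when AICAR was present. For 3 (against 11.9%) it was higher. A lower effect could be a smaller rise, as for Ifit3 (0.51 with AICAR, 1.86 without), or a larger fall, as for Gbp2 (-3.33 with, -1.33 without).

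**Figure D1:**
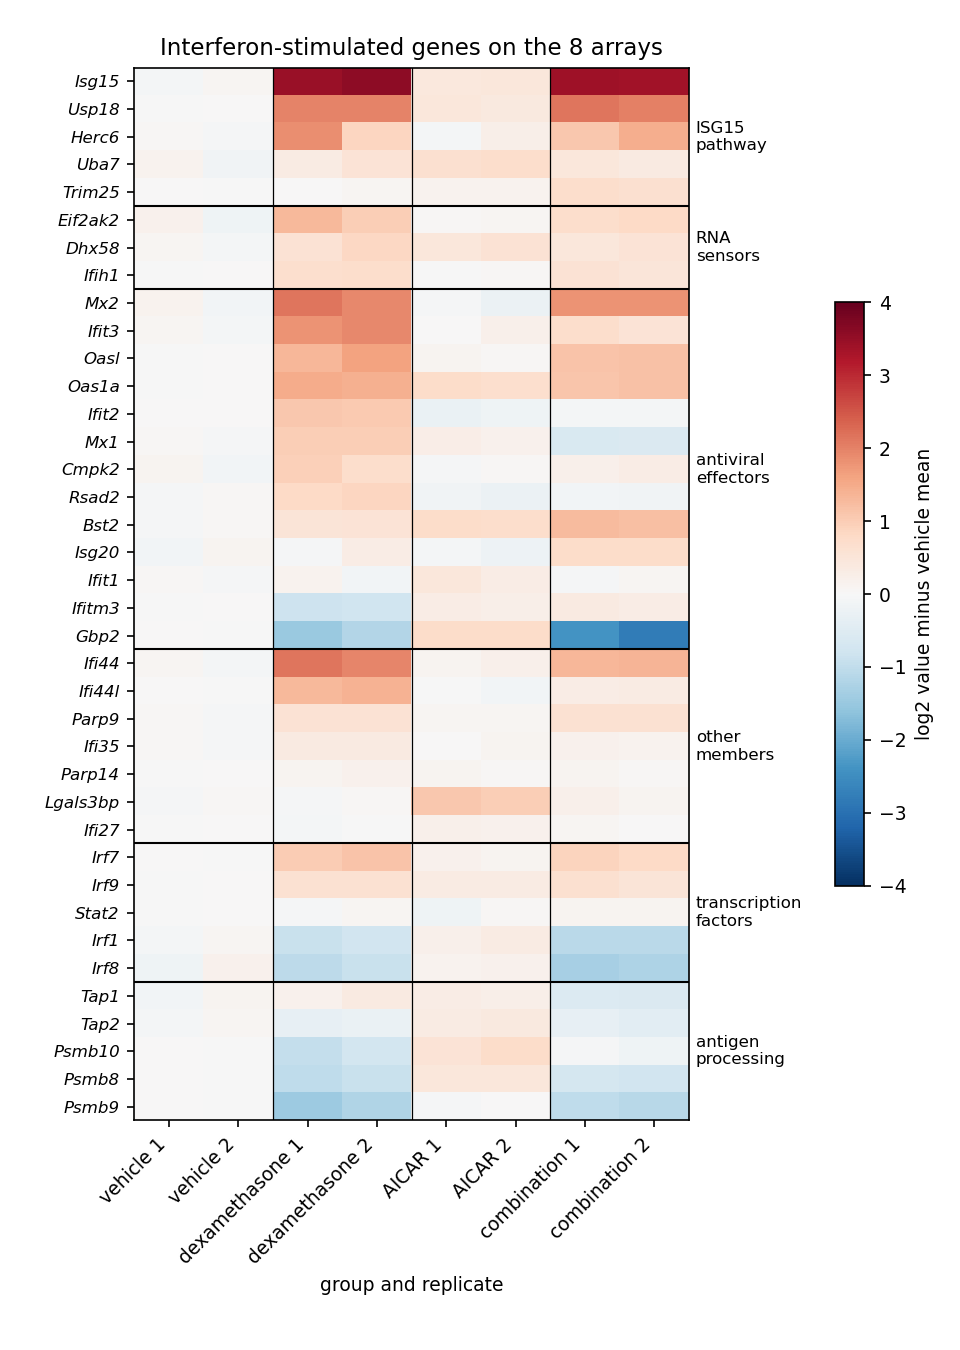
Values of the 38 genes on each of the 8 arrays, drawn as the log2 value minus the vehicle mean of the gene, with genes grouped by role. Most genes of the antiviral and ISG15 groups are red (above vehicle) after dexamethasone, while Gbp2, Irf1, Irf8 and the Psmb genes are blue (below vehicle), and the AICAR columns are pale.

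The promoters of 6 genes are shown as examples of raised and lowered genes, chosen for holding a match to an interferon-type element. Promoter sequences, from 250 bases before to 50 after the start, are those of RefSeq (build GRCr8), and 32 of the 38 genes matched by gene ID. Isg15, Mx2, Usp18, Ifit2, Dhx58 and Ifit1 did not. Each stretch runs 5′ to 3′ along the gene, from 150 bases before to 20 after the start, with matches to the ISRE (GAAANNGAAA) or the GAS (TTCNNNGAA) on either strand in capitals. Ifit3 (chr1:241527176-241527345 (+ strand)), Ifi44 (chr2:243303821-243303990 (- strand)) and Oas1a (chr12:41330316-41330485 (+ strand)) rose after dexamethasone, and Gbp2 (chr2:234005577-234005746 (+ strand)), Psmb10 (chr19:50743273-50743442 (- strand)) and Irf1 (chr10:38417785-38417954 (+ strand)) fell.
Ifit3: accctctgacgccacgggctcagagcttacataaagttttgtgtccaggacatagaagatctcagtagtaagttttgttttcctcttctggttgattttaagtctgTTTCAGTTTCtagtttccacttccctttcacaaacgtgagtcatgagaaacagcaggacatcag
Ifi44: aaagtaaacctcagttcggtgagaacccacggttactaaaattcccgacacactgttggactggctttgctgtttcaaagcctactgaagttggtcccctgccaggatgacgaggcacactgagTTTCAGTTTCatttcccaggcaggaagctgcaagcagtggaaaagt
Oas1a: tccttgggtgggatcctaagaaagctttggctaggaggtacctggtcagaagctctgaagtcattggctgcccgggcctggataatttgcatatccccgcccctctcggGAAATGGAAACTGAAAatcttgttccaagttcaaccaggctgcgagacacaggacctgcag
Gbp2: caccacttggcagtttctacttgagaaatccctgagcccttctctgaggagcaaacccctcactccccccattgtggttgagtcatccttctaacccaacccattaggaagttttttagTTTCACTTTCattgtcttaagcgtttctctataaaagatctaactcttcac
Psmb10: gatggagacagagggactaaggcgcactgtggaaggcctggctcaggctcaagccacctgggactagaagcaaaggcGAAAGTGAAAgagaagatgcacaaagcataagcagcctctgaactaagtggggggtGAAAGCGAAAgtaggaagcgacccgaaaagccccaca
Irf1: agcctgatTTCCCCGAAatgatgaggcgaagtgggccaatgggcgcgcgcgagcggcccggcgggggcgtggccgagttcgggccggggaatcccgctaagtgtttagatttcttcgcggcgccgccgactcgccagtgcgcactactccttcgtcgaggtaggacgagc
Ifit3 and Ifi44 hold the same 10 letters, TTTCAGTTTC, at -44 to -35 and at -26 to -17 from the start. Gbp2, which moved the other way, holds TTTCACTTTC at -31 to -22. Oas1a has 2 overlapping matches, Psmb10 has 2 separate ones, and the Irf1 stretch holds a GAS match (-142 to -134) and no ISRE match.

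An ISRE match lay in 19 of the 32 promoters (59.4%), against 1034 of all 27457 promoters in the table (3.77%). It was present in 9 of 17 genes that rose after dexamethasone (52.9%), in 5 of 8 that fell (62.5%) and in 5 of 7 that were not called (71.4%). A GAS match lay in 9 of the 32 (28.1%, against 8.68% of all promoters), in 4 of the 17, 4 of the 8 and 1 of the 7. In Bst2 an ISRE and a GAS match overlapped. The full glucocorticoid response element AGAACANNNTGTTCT was in none of the 32 windows and in 2 of all promoters (0.00728%), and the TGTTCT within it was in 6 of the 32 (18.8%, against 20.1%). The windows of the raised and the lowered genes were therefore not set apart by the presence of an ISRE match. These are matches of letters, and binding was not measured.

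The first comparison, dexamethasone against vehicle, asks what the glucocorticoid did alone. Of the 38 genes 57.9% were called higher, against a background of 8.37% of all 14217 genes, and 21.1% were called lower, against 14.3%. The median difference was 0.55 over the 38 genes and -0.03 over all genes. By role, 4 of 5 genes of the ISG15 pathway rose, as did all 3 RNA sensors, 9 of 13 antiviral effectors (2 fell), 4 of 7 other genes and 2 of 5 transcription factors (2 fell). None of the 5 antigen processing genes rose and 4 fell.

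Isg15, the ubiquitin-like protein that is joined to newly made proteins in interferon-treated cells, read 8.31 and 8.49 in vehicle, 11.84 and 11.97 after dexamethasone, 8.82 and 8.86 after AICAR, and 11.80 and 11.76 after both. The 4 arrays with dexamethasone stood apart from the other 4, and this was the largest change of any of the 38 genes: 3.50 ± 0.09 (adjusted p = 1.24e-07, limma). Usp18, the protease that removes ISG15 from its targets and also restrains signalling at the type I interferon receptor, read 8.25 and 8.26 in vehicle, 10.23 and 10.25 after dexamethasone, 8.72 and 8.65 after AICAR, and 10.38 and 10.28 after both. It rose by 1.98 ± 0.07 (adjusted p = 8.76e-07), again with no overlap between arrays with and without dexamethasone. Uba7, the enzyme that activates ISG15, read 6.65 and 6.36 in vehicle, 6.83 and 7.04 after dexamethasone, 7.16 and 7.20 after AICAR, and 6.97 and 6.85 after both. Its rise after dexamethasone was small (0.43 ± 0.11, adjusted p = 0.0307), and its highest group was AICAR. Herc6, a ligase of the HERC family, read 6.34 and 6.26 in vehicle, 8.16 and 7.15 after dexamethasone, 6.22 and 6.52 after AICAR, and 7.38 and 7.74 after both. The dexamethasone arrays of Herc6 lay 1 log2 unit apart, the widest pair among the 38 genes, though both were above vehicle (1.36 ± 0.28, adjusted p = 0.0096). The calls were lost for Herc6 without vehicle array 2 (adjusted p = 0.0548) and for Uba7 without vehicle array 2 (0.174) or dexamethasone array 2 (0.163). The fifth gene, Trim25, a ligase that activates the RNA sensor RIG-I, differed by 0.05 ± 0.07 and was not called.

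All 3 sensors of foreign RNA rose after dexamethasone. Eif2ak2, the kinase PKR that stops translation on binding double-stranded RNA, rose by 1.13 ± 0.13 (adjusted p = 0.000438). Ifih1, which encodes the RNA helicase MDA5, rose by 0.69 ± 0.07 and Dhx58, which encodes LGP2, by 0.71 ± 0.10. For Dhx58 the 3 probe sets gave 0.71, 0.45 and 0.20, and the last of these was not called. The chosen one is of a type whose probes can also bind other transcripts.

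Among the antiviral effectors Mx2, a dynamin-like GTPase, read 7.19 and 6.94 in vehicle, 9.21 and 8.99 after dexamethasone, 7.02 and 6.82 after AICAR, and 8.86 and 8.86 after both. Vehicle and AICAR arrays overlapped, and both dexamethasone groups lay above them (2.03 ± 0.11, adjusted p = 8.19e-06). Ifit3, of the IFIT family of RNA-binding proteins, read 6.13 and 5.97 in vehicle, 7.84 and 7.99 after dexamethasone, 6.07 and 6.25 after AICAR, and 6.74 and 6.60 after both. The rise of Ifit3 was 1.86 ± 0.10 (adjusted p = 7.24e-06) after dexamethasone alone, and the combination lay between. Mx1, the other dynamin-like GTPase, read 6.60 and 6.48 in vehicle, 7.54 and 7.53 after dexamethasone, 6.80 and 6.70 after AICAR, and 5.94 and 5.97 after both. No 2 groups of Mx1 overlapped, and it rose by 0.99 ± 0.08 (adjusted p = 5.29e-05) after dexamethasone alone. Oasl and Oas1a, of the oligoadenylate synthetase family, rose by 1.47 ± 0.09 and 1.46 ± 0.07, and Ifit2 by 1.06 ± 0.07. Rsad2 (viperin) and its neighbour Cmpk2 each rose by 0.83, and Bst2 (tetherin, which holds budding virus at the cell surface) by 0.53 ± 0.07. Isg20, an exonuclease, and Ifit1 differed by 0.12 and 0.00 and were not called.

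Gbp2 and Ifitm3 went against the other effectors. Gbp2, a guanylate-binding GTPase of interferon gamma responses, read 7.02 and 6.98 in vehicle, 5.51 and 5.82 after dexamethasone, 7.75 and 7.72 after AICAR, and 4.60 and 4.22 after both. Its 4 groups did not overlap, and it fell by 1.33 on the log2 scale (SE 0.14, adjusted p = 0.000252) after dexamethasone. Ifitm3, a membrane protein that blocks virus entry, read 11.32 and 11.35 in vehicle, 10.49 and 10.54 after dexamethasone, 11.62 and 11.57 after AICAR, and 11.69 and 11.62 after both. Only the arrays with dexamethasone alone were low, by -0.82 ± 0.07 (adjusted p = 9.21e-05).

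Ifi44, a cytoplasmic protein of incompletely known function, led the remaining genes. It read 6.73 and 6.59 in vehicle, 8.79 and 8.62 after dexamethasone, 6.78 and 6.87 after AICAR, and 8.00 and 8.01 after both, so that the dexamethasone arrays were highest and those of the combination came next (2.04 ± 0.09, adjusted p = 2.03e-06). Its neighbour Ifi44l rose by 1.35 ± 0.08, and Parp9, of the poly(ADP-ribose) polymerase family, by 0.58 ± 0.07. Ifi35 rose by 0.36 ± 0.07, a call lost without vehicle array 2 (adjusted p = 0.0696). Parp14, Ifi27 and the secreted glycoprotein gene Lgals3bp differed by 0.15, -0.04 and 0.00 and were not called.

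The transcription factors split. Irf7, the factor that amplifies type I interferon production, read 8.15 and 8.11 in vehicle, 9.13 and 9.27 after dexamethasone, 8.31 and 8.23 after AICAR, and 9.03 and 8.92 after both, and rose by 1.07 ± 0.08 (adjusted p = 4.84e-05). Irf9, the DNA-binding partner of STAT2, read 7.95 and 7.97 in vehicle, 8.58 and 8.56 after dexamethasone, 8.30 and 8.30 after AICAR, and 8.59 and 8.48 after both, and rose by 0.61 ± 0.07. For Irf9 and for Irf7 every array with dexamethasone lay above every array without it. Stat2 read between 8.46 and 8.72 on all 8 arrays, and its groups overlapped (0.01 ± 0.09, not called). Irf1, the factor through which interferon gamma induces many of its targets, read 8.12 and 8.26 in vehicle, 7.30 and 7.42 after dexamethasone, 8.38 and 8.50 after AICAR, and 7.09 and 7.11 after both. It moved the opposite way to Irf7, with both dexamethasone groups low (-0.82 ± 0.09, adjusted p = 0.00027). Irf8, a factor needed for macrophage and dendritic cell development, read 7.15 and 7.49 in vehicle, 6.27 and 6.44 after dexamethasone, 7.47 and 7.50 after AICAR, and 5.99 and 6.09 after both, and changed by -0.97 ± 0.12 (adjusted p = 0.00061). Every array with dexamethasone lay below every array without it for Irf1 and Irf8.

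Of the antigen processing genes, all but Tap1 fell after dexamethasone alone. Psmb9, an immunoproteasome subunit, read 9.08 and 9.02 in vehicle, 7.60 and 7.85 after dexamethasone, 9.01 and 9.07 after AICAR, and 8.04 and 7.93 after both, a change of -1.32 ± 0.10 after dexamethasone (adjusted p = 3.27e-05). Psmb8, the second such subunit, read 9.63 and 9.62 in vehicle, 8.61 and 8.73 after dexamethasone, 10.07 and 10.09 after AICAR, and 8.94 and 8.86 after both (-0.96 ± 0.08). Psmb10, the third, read 8.08 and 8.04 in vehicle, 7.12 and 7.33 after dexamethasone, 8.62 and 8.81 after AICAR, and 8.03 and 7.87 after both (-0.83 ± 0.10, adjusted p = 0.000747). For Psmb9 the vehicle and AICAR arrays overlapped, while for Psmb8 and Psmb10 AICAR was the highest group. Tap2, a subunit of the peptide transporter of MHC class I loading, read 6.30 and 6.48 in vehicle, 6.05 and 6.12 after dexamethasone, 6.72 and 6.78 after AICAR, and 6.07 and 5.98 after both. Its fall of -0.30 ± 0.09 (adjusted p = 0.0414) kept its call only without vehicle array 1, and leaving out each of the other 7 arrays gave adjusted p from 0.0599 to 0.22. Tap1, the other subunit, read 7.29 and 7.48 in vehicle, 7.57 and 7.74 after dexamethasone, 7.69 and 7.62 after AICAR, and 6.86 and 6.80 after both. In Tap1 the combination alone was low, and the difference after dexamethasone (0.27 ± 0.09, adjusted p = 0.0829) was not called. Tap2, Psmb8, Tap1 and Psmb9 lie next to each other on chromosome 20 in the RefSeq annotation, and of these 4 genes only Tap1 was not called lower after dexamethasone.

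**Figure D2:**
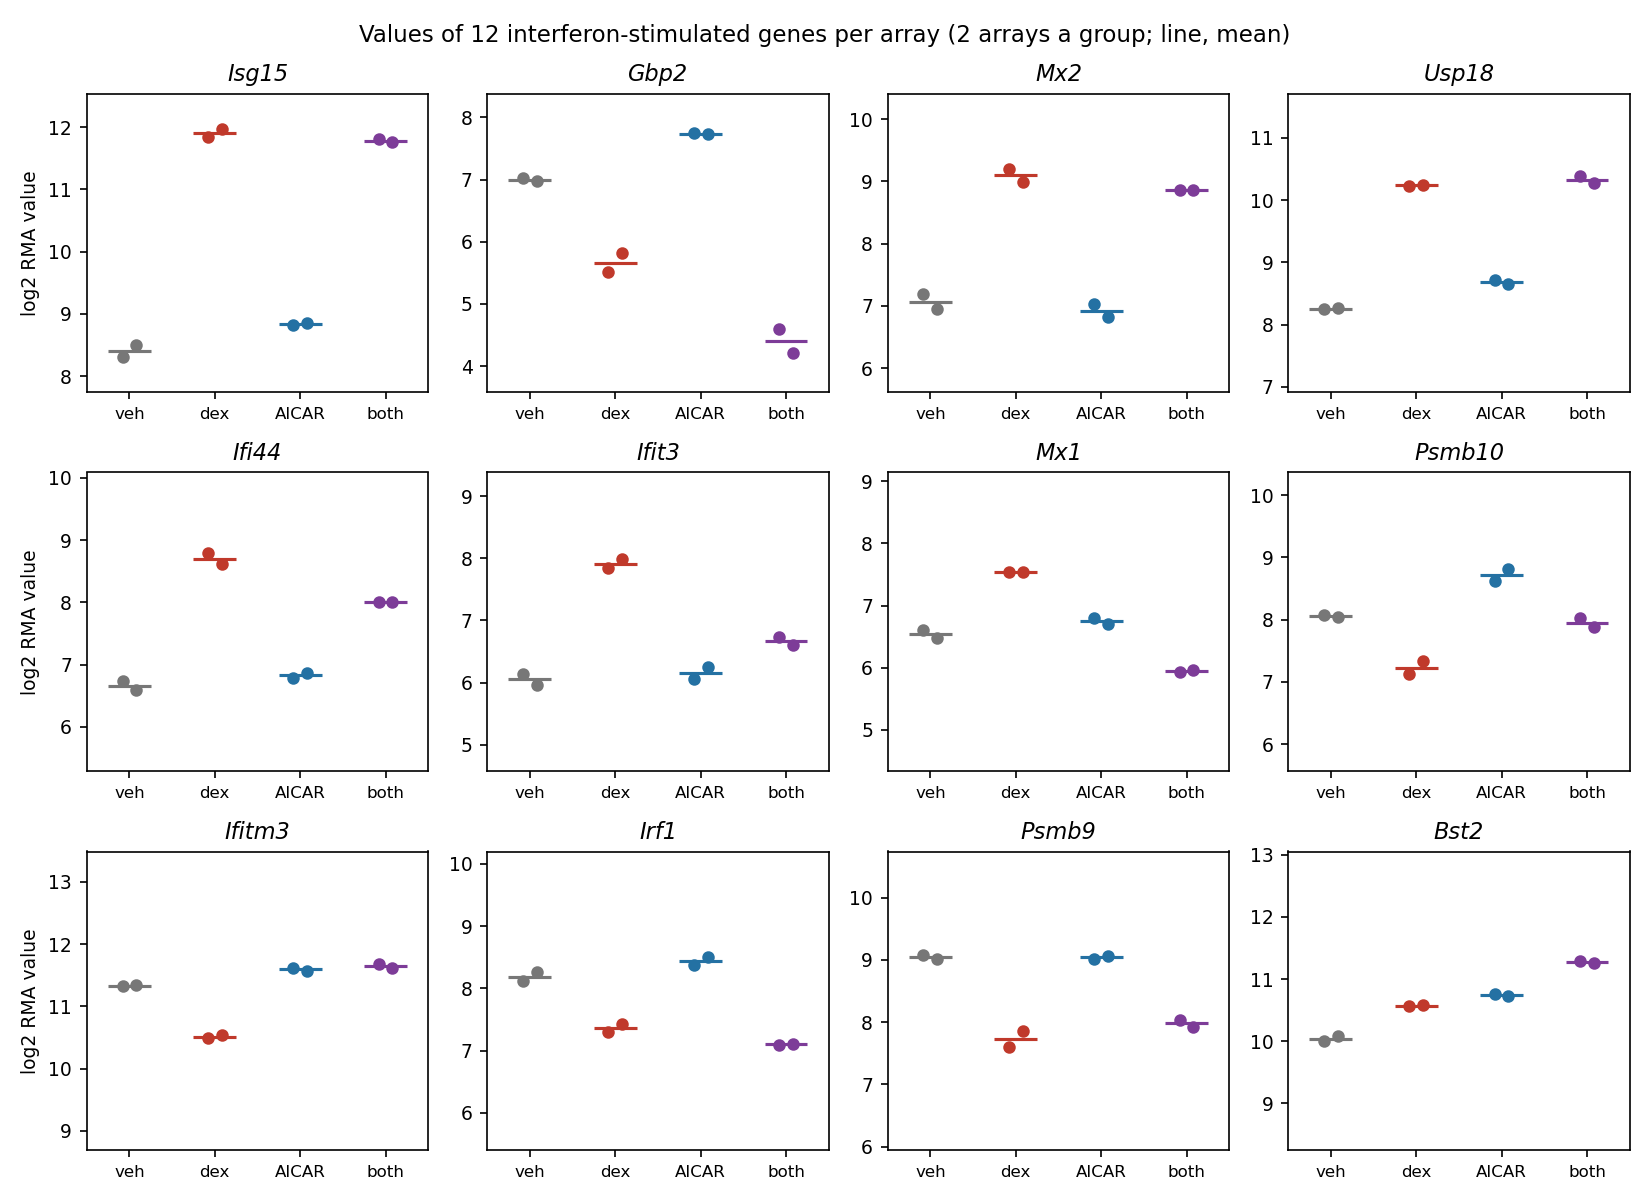
Log2 value on each array (points) and group mean (line) for the 8 genes with the widest range of group means and for Ifitm3, Irf1, Psmb9 and Bst2; veh is vehicle, dex is dexamethasone and both is the combination, and each panel spans the same range of log2 units. Isg15, Mx2 and Usp18 are high in both groups with dexamethasone, Mx1 is high after dexamethasone alone, and Gbp2 is lowest after both agents.

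Genes of the interferon pathway outside the 38, taken from a list of 37 of which 26 had a probe set, were mostly not called. After dexamethasone 1 rose (Stat3, 0.38 ± 0.08) and 5 fell, and the other 20 were not called. Of all 14217 genes 8.37% rose and 14.3% fell. The falls included the receptor chain genes Ifnar2 (-0.57 ± 0.09), Ifngr1 (-0.50 ± 0.08) and Ifngr2 (-0.39 ± 0.08), the kinase gene Jak1 (-0.31 ± 0.07) and the endotoxin receptor gene Tlr4 (-0.56 ± 0.07). Of the ligand genes on the list, Ifna1, Ifna4 and Ifnl3 had no probe set of their own and were not measured. The other ligand genes, Ifnb1 and Ifng, were not called in any of the 6 comparisons. Their group means were at most 3.92 and 3.09, close to or below the 3.84 that marks the lower quartile. Both were thus dim in every group. After both agents 1 of the 26 rose (Stat3, 1.00 ± 0.08) and 10 fell (against 15.9% and 18.4% of all genes), Ifngr1 by -1.05 ± 0.08.

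Liver is a mixture of cells, and in whole tissue fewer cells of a type and less RNA per cell cannot be told apart. Of 13 markers of Kupffer cells and macrophages 10 had a probe set, and 9 of the 10 fell after dexamethasone (median -1.04). After both agents all 10 fell (median -4.22), and 4 of them, Cd5l, Cd163, Adgre1 and Aif1, lay below 3.84. Their levels, summed on the linear scale, came to 5055 to 5141 on the vehicle arrays, 2249 to 2498 with dexamethasone, 5550 to 5647 with AICAR and 209 to 219 with both. Of 6 sinusoidal endothelial markers 5 fell after dexamethasone and 4 after both, and of 11 markers of other leukocytes 7 fell in each case, while 3 rose after both. Of 6 hepatocyte markers 1 rose after dexamethasone, and 2 rose and 1 fell after both. Albumin (Alb) differed by 0.03 ± 0.07 after dexamethasone. Beside these marker counts, 14.3% of all genes fell after dexamethasone and 18.4% after both, while 8.37% and 15.9% rose. Most macrophage, endothelial and other leukocyte markers fell in the same arrays as Gbp2, Irf1, Irf8 and most antigen processing genes. Among the latter, Tap1 was not called after dexamethasone (0.27 ± 0.09), nor Psmb10 after both (-0.11 ± 0.10). The part of the markers in those falls was not tested. Between dexamethasone alone and the combination the macrophage markers fell further by a median of -3.30, and over the same arrays Gbp2 fell by 1.26 on the log2 scale (SE 0.14) and Tap1 by 0.83 (SE 0.09), while Psmb10 rose by 0.72 ± 0.10. Irf1 (-0.26 ± 0.09), Irf8 (-0.31 ± 0.12), Tap2 (-0.06 ± 0.09), Psmb8 (0.23 ± 0.08) and Psmb9 (0.25 ± 0.10) were not called. Of the 38 genes 11 were lower and 5 higher in this comparison (against 11.3% and 14% of all genes). The lower ones included genes that had risen after dexamethasone, such as Mx1 (-1.58 ± 0.08), Ifit3 (-1.24 ± 0.10), Ifit2 (-1.13 ± 0.07) and Rsad2 (-0.96 ± 0.08). The part of the markers in these changes was not tested either.

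The second comparison, AICAR against vehicle, asks what AICAR did alone. Of the 38 genes 14 rose (36.8%, against 6.22% of all genes) and none fell (background 8.96%), with medians of 0.16 over the 38 genes and 0.00 over all genes. At an unadjusted p under 0.05, limma gave 18 higher and 2 lower, and with limma's trended and robust prior 2 were called lower. The changes were small: 1 of the 14, Lgals3bp, passed 2-fold. Lgals3bp read 6.34 and 6.42 in vehicle and the same after dexamethasone, 7.45 and 7.37 after AICAR, and 6.57 and 6.49 after both, so only the AICAR arrays were high (1.03 ± 0.08, adjusted p = 0.000156). Gbp2 and Bst2 followed with 0.74 ± 0.14 and 0.71 ± 0.07, then Oas1a (0.70 ± 0.07), Uba7 (0.67 ± 0.11) and Psmb10 (0.65 ± 0.10). Of the 8 genes that fell after dexamethasone, 5 rose after AICAR: Ifitm3, Gbp2, Tap2, Psmb8 and Psmb10. Both comparisons use the vehicle arrays. Of the 22 that rose after dexamethasone, 7 also rose after AICAR (Isg15, Uba7, Usp18, Irf9, Dhx58, Oas1a and Bst2), Isg15 by 0.44 ± 0.09 and Usp18 by 0.43 ± 0.07.

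Fewer than 14 genes were called higher after AICAR when an array of either group was left out: 8 without vehicle array 1, 9 without vehicle array 2, 6 without AICAR array 1 and 7 without AICAR array 2. The calls on Bst2, Oas1a, Psmb8, Psmb10, Uba7 and Lgals3bp held without any 1 array. Leaving out any 1 of the vehicle or AICAR arrays ended the calls on Gbp2 (adjusted p from 0.0504 to 0.0653) and Irf9 (0.0749 to 0.0993). Isg15 lost it without vehicle array 1 (0.0798), AICAR array 1 (0.0661) or AICAR array 2 (0.0692), and Tap2 without the same arrays (0.136, 0.0934 and 0.123). Dhx58 lost it without vehicle array 2 (0.0892) or either AICAR array (0.0509 and 0.0895), and Usp18 without AICAR array 1 (0.0626). Ifit1 kept its call only without a dexamethasone array (0.0668 to 0.22 without each of the other 6), and Ifitm3 lost it without any 1 of the 8 arrays (0.0526 to 0.196). For Mx2 the probe sets disagreed. The chosen one gave -0.15 ± 0.11 and was not called, and the other, with a mean of 6.61, gave 1.86 ± 0.09 (adjusted p = 1.26e-05).

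**Figure D3:**
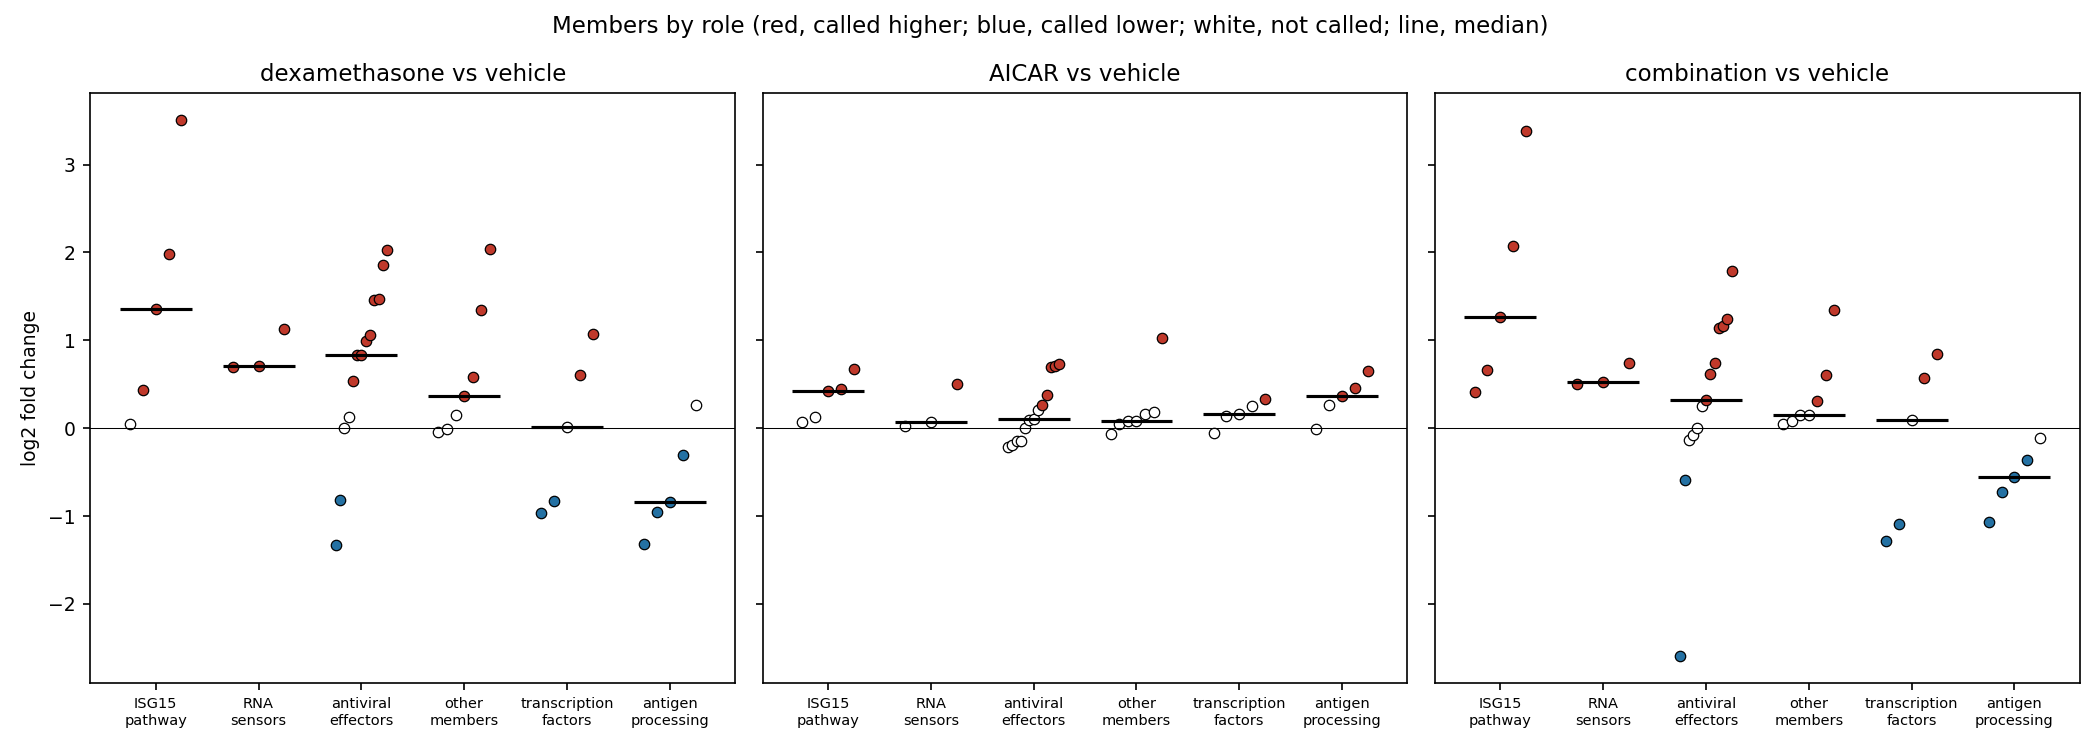
Log2 fold change of each gene (points) in 3 comparisons with vehicle, by role, with the median of each role group as a line; filled points passed the adjusted p of 0.05. The median of antigen processing lies below 0 after dexamethasone and after both agents and above 0 after AICAR, where no gene was called lower.

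The combination was then set against vehicle. Of the 38 genes 20 rose (52.6%, background 15.9%) and 8 fell (21.1%, background 18.4%), with medians of 0.32 and, over all genes, -0.01. All 5 ISG15 pathway genes rose, Isg15 by 3.38 ± 0.09 and Usp18 by 2.07 ± 0.07, as did all 3 RNA sensors. Trim25, which read 9.15 and 9.13 in vehicle, 9.15 and 9.22 after dexamethasone, 9.26 and 9.26 after AICAR, and 9.83 and 9.77 after both, was high in the combination alone (0.67 ± 0.07, adjusted p = 0.000179). The same held for Isg20, a dim gene with 4.86 and 5.05 in vehicle, 4.91 and 5.25 after dexamethasone, 4.88 and 4.75 after AICAR, and 5.68 and 5.70 after both (0.74 ± 0.12). Bst2 read 10.00 and 10.08 in vehicle, 10.56 and 10.58 after dexamethasone, 10.76 and 10.73 after AICAR, and 11.30 and 11.26 after both. It rose with each agent and most with both (1.24 ± 0.07), and the departure from the sum of the 2 separate effects was 0.00 ± 0.10.

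Of the 22 genes that rose after dexamethasone, 17 also rose after both agents and 4 were not called (Ifit2, Rsad2, Cmpk2 and Ifi35). Mx1 fell by 0.59 on the log2 scale (SE 0.08, adjusted p = 0.000592). For Cmpk2 the other probe set was called higher after both (0.34 ± 0.08, adjusted p = 0.0149). Of the 8 that fell after dexamethasone, 6 fell after both, among them Gbp2 by -2.59 ± 0.14, a 6.03-fold fall, Irf8 by -1.28 ± 0.12 and Irf1 by -1.08 ± 0.09. Psmb10 differed by -0.11 ± 0.10 and was not called, and Ifitm3 rose by 0.32 ± 0.07. Both comparisons use the vehicle arrays, so noise in those arrays bears on both. Of all genes 15.9% rose and 18.4% fell after both agents, and the overlap of the 2 comparisons over all genes was not counted. Tap1 fell by 0.56 on the log2 scale (SE 0.09, adjusted p = 0.00215). Calls lost without 1 array were those of Herc6 (vehicle 2, adjusted p = 0.0504; combination 2, 0.0644), Ifitm3 (combination 1, 0.0739) and Uba7 (vehicle 2, 0.176; combination 1, 0.155; combination 2, 0.0632). Ifi44l lost its call without any 1 array of either group (0.0556 to 0.0907), and Tap2 without vehicle 2 (0.0917) or combination 2 (0.0928).

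Against dexamethasone alone, which asks what adding AICAR did, 5 of the 38 genes were higher with both agents (13.2%, background 14%) and 11 were lower (28.9%, background 11.3%). The median was -0.14 over the 38 genes and 0.02 over all genes. The 11 included 8 of the 13 antiviral effectors: Mx1 (-1.58 ± 0.08), Gbp2 (-1.26 ± 0.14), Ifit3 (-1.24 ± 0.10), Ifit2 (-1.13 ± 0.07), Rsad2 (-0.96 ± 0.08), Cmpk2 (-0.58 ± 0.11), Oas1a (-0.32 ± 0.07) and Oasl (-0.31 ± 0.09). Ifi44l (-1.04 ± 0.08), Ifi44 (-0.70 ± 0.09) and Tap1 (-0.83 ± 0.09) made up the rest. The 5 that were higher, against the majority, were Ifitm3 (1.14 ± 0.07), Psmb10 (0.72 ± 0.10), Bst2 (0.71 ± 0.07), Trim25 (0.62 ± 0.07) and Isg20 (0.61 ± 0.12). Isg15 (-0.12 ± 0.09), Usp18 (0.09 ± 0.07) and Mx2 (-0.24 ± 0.11) were not called, but the other Mx2 probe set was called lower (-0.44 ± 0.09, adjusted p = 0.00717). Dhx58 was not called by its chosen probe set (-0.20 ± 0.10), while another was called higher (0.50 ± 0.13) and the last was not called (0.13 ± 0.13). Ifit2 and Ifit3, next to each other on chromosome 1, were both lower, as were the neighbours Rsad2 and Cmpk2 on chromosome 6 and Ifi44 and Ifi44l on chromosome 2. The call on Oas1a was lost without dexamethasone array 1 (adjusted p = 0.0603) or combination array 1 (0.0991), and that on Oasl without any 1 array other than dexamethasone array 1 (0.0668 to 0.219).

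Against AICAR alone, 17 of the 38 were higher with both agents (44.7%, background 18.7%) and 11 lower (28.9%, background 19.4%), with medians of 0.15 and, over all genes, -0.02. This contrast shares no array with dexamethasone against vehicle, and so gives the effect of dexamethasone in other arrays. Of the 22 genes that rose in the first, 15 rose here, Mx1 fell and 6 were not called (Uba7, Dhx58, Ifit2, Rsad2, Cmpk2 and Ifi35). For Dhx58 the chosen probe set gave 0.00 ± 0.10, another was called higher (0.55 ± 0.13) and the last was not called (0.14 ± 0.13). Of the 8 that fell in the first, 7 fell here, Gbp2 by -3.33 ± 0.14, a 10.0-fold fall, and Ifitm3 was not called (0.06 ± 0.07). All 5 antigen processing genes were lower, between -0.73 ± 0.09 (Tap2) and -1.18 ± 0.08 (Psmb8). Irf1 changed by -1.34 ± 0.09, Irf8 by -1.44 ± 0.12 and Lgals3bp by -0.88 ± 0.08. Across the 38 genes the 2 effects correlated at Pearson r = 0.846 and Spearman rho = 0.802, and 32 had the same sign. Over all 14217 genes these values were 0.532, 0.402 and 8816. Genes are not independent replicates, and the correlations are descriptions. Calls lost without 1 array were those of Herc6 (AICAR 1, adjusted p = 0.0684; combination 2, 0.0722), Ifit1 (AICAR 1, 0.134; combination 1, 0.137) and Irf9, which kept its call only without a dexamethasone array (0.0533 to 0.226 without each of the other 6).

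**Figure D4:**
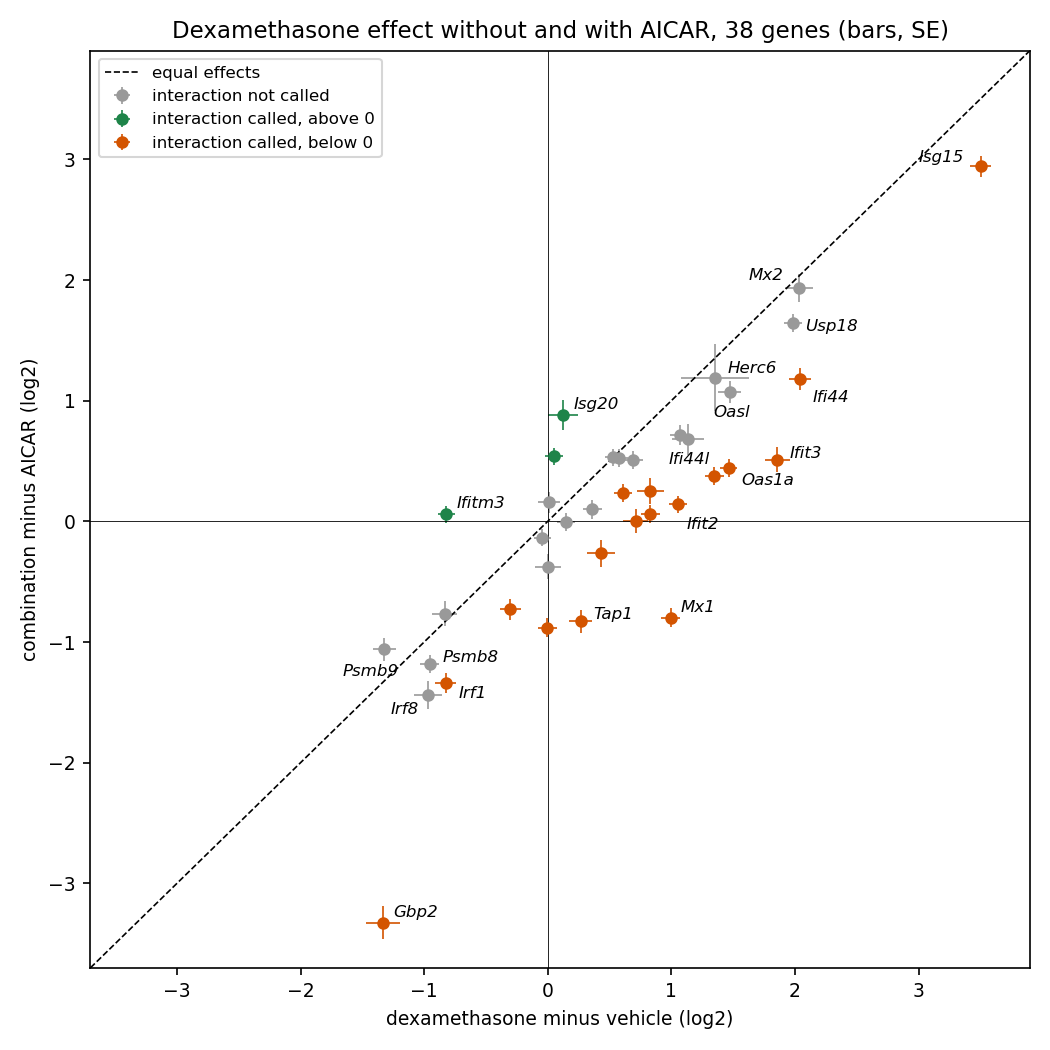
Effect of dexamethasone without AICAR (horizontal axis, log2) and with AICAR (vertical axis, log2) for the 38 genes; bars are standard errors and the dashed line marks equal effects. Points called for interaction are orange (17 below the line) or green (3 above it), with Gbp2, Mx1 and Ifit3 far below the line and Ifitm3 above it.

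The interaction, which is the effect of dexamethasone with AICAR minus its effect without, tests whether the agents add up on the log2 scale. It was below 0 in 17 of the 38 genes (44.7%, background 8.05%) and above 0 in 3 (7.89%, background 11.9%), and the medians were -0.39 and, over all genes, 0.01. Among the 17 were 7 of the 13 antiviral effectors, and the values most below 0 were those of Gbp2 (-1.99 ± 0.19, adjusted p = 0.000333), Mx1 (-1.79 ± 0.11, adjusted p = 2.5e-05), Ifit3 (-1.35 ± 0.14), Tap1 (-1.10 ± 0.13) and Oas1a (-1.02 ± 0.10). These differ in kind. Mx1 rose with dexamethasone alone and fell with both, Gbp2 fell with dexamethasone alone and fell further with both while rising with AICAR, and Tap1 fell with both only. Oas1a rose with each agent, and less with both (1.14 ± 0.07) than the 2 separate effects add up to. Ifitm3 (0.88 ± 0.10), Isg20 (0.76 ± 0.17) and Trim25 (0.49 ± 0.10) lay above 0. Of the 22 genes that rose after dexamethasone, 12 had an interaction called below 0 and none above, but both contrasts use the same vehicle and dexamethasone arrays, so noise in those arrays bears on both. Usp18 (-0.34 ± 0.10, adjusted p = 0.0625), Mx2 (-0.10 ± 0.16) and Irf7 (-0.36 ± 0.12, adjusted p = 0.0753) were not called. An interaction below 0 was not particular to these genes: all 10 macrophage markers were called below 0 (median -3.29). Of the 6 endothelial markers 2 lay below 0 and 2 above, and of the 11 other leukocyte markers 2 lay below and 3 above. The part of the markers in the interactions of the 38 genes was not tested.

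The interaction rests on all 4 groups, and 9 of its 20 calls were lost when some 1 array was left out. Without AICAR array 2 or without combination array 2 the genes below 0 numbered 11 in place of 17, and without combination array 1 the genes above 0 numbered 1 in place of 3. The calls on Gbp2, Mx1, Ifit3, Tap1, Oas1a, Ifi44l, Ifit2, Lgals3bp, Ifi44, Rsad2 and Ifitm3 held without any 1 array. That on Dhx58 was lost without combination array 1 (adjusted p = 0.0531), and so was that on Trim25 (0.0569). Isg15 lost its call without vehicle 1 (0.0521), dexamethasone 2 (0.0517), AICAR 2 (0.0528) or combination 2 (0.0605), and Isg20 without vehicle 2 (0.0624), AICAR 2 (0.0625) or either combination array (0.0575 and 0.0608). Uba7 lost its call without vehicle 2, dexamethasone 2, either AICAR array or combination 2 (0.0548 to 0.0763), and Irf1 without vehicle 1, dexamethasone 2, AICAR 2 or either combination array (0.067 to 0.0757). Cmpk2 lost it without vehicle 2, dexamethasone 1 or any array with AICAR (0.065 to 0.117), Tap2 without any 1 array other than vehicle 2 (0.071 to 0.149), and Irf9 without any 1 array (0.0628 to 0.141). The probe sets again disagreed for Mx2, whose other probe set gave -2.30 ± 0.12, and for Dhx58, whose other probe sets gave 0.10 and -0.07 and were not called. For Uba7 the other probe sets gave -0.85 (called) and 0.13 (not called). The other probe sets of Cmpk2 (-0.92 ± 0.12) and Irf9 (-0.62 ± 0.13) were called below 0, as the chosen ones were.

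By group mean, dexamethasone was the highest of the 4 groups for 19 genes, AICAR for 11, the combination for 7 and vehicle for 1. Vehicle was the lowest for 19, AICAR for 7, and dexamethasone and the combination for 6 each. The tally includes genes whose group means spanned as little as 0.15 (Parp14), and it was not made over all genes. Stat2, Ifit1, Ifi27 and Parp14 were called neither after dexamethasone, nor after both agents, nor for interaction. Ifit1, at 4.89 the dimmest of the 38, was called higher after AICAR (0.38 ± 0.10, adjusted p = 0.0464) and lower with both agents than with AICAR alone (-0.38 ± 0.10), and neither call held without AICAR array 1 (adjusted p = 0.22 and 0.134) or combination array 1 (0.0668 and 0.137). Ifi27, the brightest, had group means from 12.57 to 12.80 and no call in any of the 6 comparisons.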

How the data were processed

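Total RNA from rat liver was hybridised to 8 one-colour Affymetrix arrays, per the labels' protocols. The deposited values are log2 values per probe set that the authors made by RMA (affy software), according to the submitters' processing notes. Their versions and the annotation are not given in the sources used here, and the log base was read from the range of the values. The table holds 31099 probe sets. After 57 array controls were left out, 31042 were tested, of which 20826 had 1 gene symbol, 436 several and 9780 none. The depth of an array is set by its number of probes and the 2 arrays a group limit the precision.

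All 4 groups were fitted together in R 4.3.3 with limma 3.58.1 (lmFit, contrasts.fit and eBayes; 4 residual and 4.58 prior degrees of freedom), with Benjamini-Hochberg adjustment over all tested probe sets and a call at 0.05. The fit was tested on simulated data. Counts over genes use 1 probe set a gene, the brightest. Array values are given for the 8 genes with the widest range of group means, for called genes that went against the majority of a comparison, and for the ISG15 pathway, transcription factor and antigen processing genes. Other genes are given by role, with those of smallest p as examples. The members and lists were chosen with earlier results of these data known. Alternatives were other scalings (cyclic loess, centring on bright probe sets), a filter on dim probe sets, a 2-fold minimum, the mean of all probe sets of a gene, the replicate number as a block, leaving out each array, fitting the compared groups alone, and limma's trended, robust prior. The replicate numbers were checked for pairing. Same-numbered arrays of different groups had correlations of their deviations from the group means between -0.0418 and 0.16. No strong shared shift by replicate number was thus seen, but this cannot tell whether the arrays were handled as pairs.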

Additional observations from a re-analysis of the deposited data

Results flagged for a closer look

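For 20 of the 38 genes the effect of dexamethasone differed with and without AICAR by the interaction test of the limma model (adjusted p under 0.05). The calls below 0 numbered 17 (against 8.05% of all genes) and those above 0 numbered 3 (against 11.9%). Leaving out some 1 array ended 7 of the 17 calls and 2 of the 3. For Dhx58 and Uba7 the probe sets disagreed on the call. The difference, effect with AICAR minus effect without, was below 0 for the antiviral genes Gbp2 (-1.99), Mx1 (-1.79), Ifit3 (-1.35), Oas1a (-1.02), Ifit2 (-0.92), Rsad2 (-0.77) and Cmpk2 (-0.58). It was also below 0 for the neighbours Ifi44l (-0.97) and Ifi44 (-0.86), for Lgals3bp (-0.88), for the peptide transporter genes Tap1 (-1.10) and Tap2 (-0.43), for the RNA sensor Dhx58 (-0.71), for Uba7 (-0.70) and Isg15 (-0.56) of the ISG15 pathway, and for the transcription factors Irf1 (-0.52) and Irf9 (-0.38). It was above 0 for Ifitm3 (0.88), Isg20 (0.76) and Trim25 (0.49). With 2 arrays a group, single arrays far from the rest of their group could not be looked for.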

How the results depend on the processing

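The direction of the called results on the 38 genes was the same under every alternative run, whereas several that were not called changed sign. Among those, 1 was called after the change (Mx2, AICAR vs vehicle), which went from below to above 0 with the mean of all its probe sets (0.86, adjusted p = 0.000271). Asking for a 2-fold change besides the adjusted p left 12 genes higher and 2 lower after dexamethasone, 1 higher after AICAR, 8 higher and 4 lower after both, 1 higher and 5 lower for both against dexamethasone, 6 higher and 5 lower for both against AICAR, and 0 above and 5 below for the interaction. The share of all genes that passes this threshold was not counted, so these counts show only how the calls on the 38 genes depend on it. With the trended and robust prior 2 genes were called lower after AICAR in place of none. Without 1 array at a time, the genes called higher after AICAR ranged from 6 to 13, the interaction above 0 from 1 to 3 and below 0 from 11 to 15, and the other counts stayed within 1.5 times of their values. Of 136 calls, cyclic loess lost 2 and added 11, centring lost 1 and added 6, the filter on dim probe sets added 3, and leaving out 1 array lost 6 to 19. The trended and robust prior lost 3 and added 24, and the mean of all probe sets of a gene lost 2 and added 12. Lost with that prior were the calls on Herc6 after dexamethasone, after both, and for both against AICAR (limma, adjusted p 0.0741, 0.0746 and 0.08). Fitting the compared groups alone, which leaves out the interaction, lost 7 of 116 calls and added 1. The replicate number as a block lost 6 and added 1. It gave 22 genes higher and 7 lower after dexamethasone, 13 higher after AICAR and 15 below 0 for the interaction. As no strong shared shift by replicate number was seen, this fit is given only as a check. Another scaling moved the median of all genes by less than 0.1. The 2 arrays a group, dim genes such as Ifit1 and Isg20, and probe sets that disagree (such as those of Mx2, Dhx58, Uba7 and Cmpk2) limit what can be said of single genes.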
